A study of Mus musculus with 16 samples.

Results

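Myl7, Myl4, Sln, Mybphl and Bmp10 are 5 genes that the mouse heart uses mainly in its atria, and here they were followed in RNA libraries made from ventricles. They were taken from a list of atrial-enriched genes, and all 5 were found by symbol among the 51912 gene identifiers of the table. There were 16 libraries, 4 in each of 4 groups. WT SH and KO SH are the sham-operated WT control and Lrrc10-/- groups, and WT MI and KO MI are the groups of the same genotypes with a myocardial infarction (MI) made by ligation. The Lrrc10-/- mice lack the gene in the whole body and are on a C57BL/6 background, and the WT mice are C57BL/6 J. Surgery was at postnatal day 1 and the full ventricles, above and below the ligation, were collected 7 days later. The question was how the 5 genes differed between the 4 groups and how they were spread among the libraries.

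Atrial and ventricular muscle cells share most of their contractile machinery but carry chamber-specific versions of several proteins. During development the mouse ventricle silences the atrial versions and the atria keep them. Atrial transcripts in a ventricular sample can come from ventricular cells that still make them or from atrial tissue collected with the ventricle, and in bulk RNA these sources cannot be told apart. For the same reason, fewer cells of a type and less RNA per cell cannot be told apart.

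The values are expected counts per gene, and the total per library ranged from 33783874 to 57470159. Levels are given as CPM, the counts of a gene scaled to a common library total after TMM normalization. A count of 3 or less was treated as not told from 0, which corresponds to between 0.0577 and 0.0858 CPM in these libraries. As a check of the labels, Lrrc10 had 0 counts in all 8 KO libraries and between 26.3 and 35.6 CPM in the 8 WT libraries. The sex-linked genes were less even than the sex-balanced design stated in the labels. Xist was above 100 CPM in 0 of 4 WT SH libraries and in 2 of 4 libraries of each other group, and the summed Y-linked genes were above 100 CPM in the remaining libraries. By these genes, comparisons with WT SH and the interaction mix sex with genotype or MI, and these cannot be told apart.

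Myl7 (ENSMUSG00000020469) encodes the atrial regulatory myosin light chain and lies on the minus strand of chromosome 11 of GRCm39, from 5845449 to 5848792. Myl4 (ENSMUSG00000061086), on the plus strand of the same chromosome from 104440903 to 104486603, encodes the atrial essential light chain, which embryonic ventricle and embryonic skeletal muscle also make. Sln (ENSMUSG00000042045) encodes sarcolipin, a small membrane peptide that inhibits the SERCA calcium pump in atrium and in skeletal muscle, and lies on chromosome 9 from 53742537 to 53761846. Mybphl (ENSMUSG00000068745), on chromosome 3 from 108272199 to 108287373, encodes a relative of myosin-binding protein C found in atrium and conduction tissue. Bmp10 (ENSMUSG00000030046), on chromosome 6 from 87405969 to 87415616, encodes a secreted BMP ligand that the trabeculae of the embryonic heart make and that becomes restricted to the right atrium. These 3 lie on the plus strand, and all 5 genes are protein-coding in the GENCODE M39 annotation. Myl4, Mybphl and Bmp10 overlap annotated genes on the opposite strand, among them Cdc27 in the case of Myl4. The reads were strand-specific, but whether the counting used the strand is not given in the sources used here.

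Adjusted for exon length, the order of the mean levels over the 16 libraries was Myl4 with 2.82 CPM per kb, Myl7 with 0.857, Sln with 0.397, Mybphl with 0.295 and Bmp10 with 0.0196. The ventricular light chains Myl3 and Myl2 had 1036 and 408 CPM per kb on the same scale. All 5 atrial genes were therefore rare transcripts in these libraries. Myl4 was above Myl7 on this scale in all 16 libraries, whereas the order of Myl7, Sln, Mybphl and Bmp10 changed from library to library.

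The RefSeq table used here holds promoters for 4 of the 5 genes, and Sln has no entry in it. They are shown because 3 of them belong to genes whose levels moved together, as described below, and Bmp10 to one that did not. Each line gives the 250 bases before the RefSeq transcript start, 5′ to 3′ on the gene's strand, and each matched GRCm39 at a single place: chr11:5848783-5849032 on the minus strand, and chr3:108271977-108272226, chr11:104441239-104441488 and chr6:87405726-87405975 on the plus strand. Capitals mark short motifs that were searched on both strands, namely GATAA (GATA factors), AGGTGT (T-box factors), AAATAG (MEF2), CATTCC (TEAD), CAAGTG (NKX2-5) and AGGTCA (nuclear receptors of the NR2F family).
Myl7: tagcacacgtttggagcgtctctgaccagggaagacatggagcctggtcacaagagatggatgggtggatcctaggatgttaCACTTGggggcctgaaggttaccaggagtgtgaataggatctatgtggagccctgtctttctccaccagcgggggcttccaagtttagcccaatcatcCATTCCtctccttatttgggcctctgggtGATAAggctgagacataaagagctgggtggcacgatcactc
Mybphl: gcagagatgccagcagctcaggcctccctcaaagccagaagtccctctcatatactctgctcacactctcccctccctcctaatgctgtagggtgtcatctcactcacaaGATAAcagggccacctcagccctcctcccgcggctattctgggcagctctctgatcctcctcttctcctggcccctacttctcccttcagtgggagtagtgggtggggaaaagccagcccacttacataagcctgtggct
Myl4: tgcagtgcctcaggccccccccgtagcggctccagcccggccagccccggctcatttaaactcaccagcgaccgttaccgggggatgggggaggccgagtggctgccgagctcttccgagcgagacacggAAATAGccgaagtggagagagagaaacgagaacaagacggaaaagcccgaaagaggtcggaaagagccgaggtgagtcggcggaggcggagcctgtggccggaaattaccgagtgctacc
Bmp10: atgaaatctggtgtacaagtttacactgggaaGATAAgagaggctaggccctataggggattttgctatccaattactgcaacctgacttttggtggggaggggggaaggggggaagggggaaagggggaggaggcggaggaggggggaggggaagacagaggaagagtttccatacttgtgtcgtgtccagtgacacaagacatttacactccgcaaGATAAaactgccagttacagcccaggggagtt

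GATAA occurred in 3 of the 4 promoters. It lay from 41 to 37 bases before the start of Myl7, from 140 to 136 bases before that of Mybphl, and in 2 places before that of Bmp10. Among 32841 RefSeq mouse promoters of this length, 22.6% hold it on one strand or the other. The Myl7 promoter also held CATTCC, found in 12.6% of all promoters, and the reverse complement of CAAGTG, found in 11.6%. The Myl4 window lies wholly inside the gene as GENCODE M39 places it, since that annotation starts the gene earlier, at 104440903. The one match in it was AAATAG, which 11.0% of promoters hold. AGGTGT and AGGTCA, present in 11.8% and 14.0% of promoters, had no match in these 4 windows. The motifs share no bases with each other here. The promoters of Myl7 and Mybphl, whose levels were the most alike of any pair, had GATAA as their one common motif, and that motif is also in the Bmp10 promoter.

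Myl7 was near 0 in some ventricle libraries and plainly present in others of the same group. In WT SH it had 0.807, 10.1, 0.0286 and 1.52 CPM in replicates 1 to 4 (42, 376, 1 and 63 counts). In KO SH it had 0.0676, 0.432, 0.751 and 0.97 CPM (3, 16, 36 and 37 counts). WT SH replicate 2 stood far above its group, while replicate 3 had a single count. In WT MI the levels were 1.22, 0.215, 2.77 and 0 CPM (58, 10, 123 and 0 counts). In KO MI they were 3.72, 2.09, 9.62 and 0.0535 CPM in replicates 1, 2, 3 and 7 (183, 106, 499 and 2 counts). Each group thus had 1 library at or under 3 counts, and the ranges of the 4 groups overlapped. WT MI replicate 4 gave no Myl7 count among 45454226, with 1630 CPM of the ventricular Myl2.

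Mybphl followed the same libraries. Its levels in WT SH were 0.211, 3.18, 0 and 0.653 CPM, and in KO SH they were 0, 0.081, 0.104 and 0.341 CPM. WT MI libraries had 0.336, 0.108, 1.12 and 0.0652 CPM, and KO MI libraries had 1.32, 0.925, 3.53 and 0.0268 CPM. The top 2 libraries were again KO MI replicate 3 (183 counts) and WT SH replicate 2 (119 counts). It was at or under 3 counts in 5 of the 16 libraries.

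Sln, which encodes the SERCA inhibitor of the atrium, had 0.0961, 2.11, 0.0572 and 0.484 CPM in WT SH and 0, 0.081, 0.0835 and 0.498 CPM in KO SH. In WT MI it had 0.568, 0.0861, 1.1 and 0 CPM, and in KO MI 0.915, 0.492, 2.95 and 0.241 CPM. KO MI replicate 3 and WT SH replicate 2 led once more, with 153 and 79 counts. One library departed from the pattern of Myl7. KO MI replicate 7 had 9 Sln counts beside 2 counts of Myl7 and 1 of Mybphl.

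Myl4 was the only one of the 5 with more than 3 counts in every library. It had 10.3, 60.8, 2.63 and 11.9 CPM in WT SH and 2.25, 4.7, 6.09 and 10.6 CPM in KO SH. WT MI libraries had 13.7, 6.24, 21.7 and 3.61 CPM, and KO MI libraries had 28.8, 30.2, 66.3 and 8.11 CPM. Its lowest value was 92 counts, in WT SH replicate 3, where Myl7 had 1. In the 4 libraries with at most 3 Myl7 counts, Myl4 still had between 92 and 303 counts. The highest KO MI library was 29.4 times the lowest KO SH library.

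Bmp10 was at or under 3 counts in 11 of the 16 libraries and did not follow the others. It had 0.0192, 0.0535, 0.0286 and 0.0242 CPM in WT SH (1, 2, 1 and 1 counts) and 0.0902, 0.054, 0 and 0.0787 CPM in KO SH (4, 2, 0 and 3 counts). In WT MI it had 0.357, 0.108, 0.0675 and 0.0434 CPM (17, 5, 3 and 2 counts), and in KO MI 0.508, 0.0197, 0.0193 and 0.241 CPM (25, 1, 1 and 9 counts). The highest libraries were KO MI replicate 1 and WT MI replicate 1. KO MI replicate 3 and WT SH replicate 2, which led for the other 4 genes, had 1 and 2 Bmp10 counts. All 4 WT SH libraries were at or under 3 counts, so at this depth the gene was not told from 0 there.

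**Figure D1:**
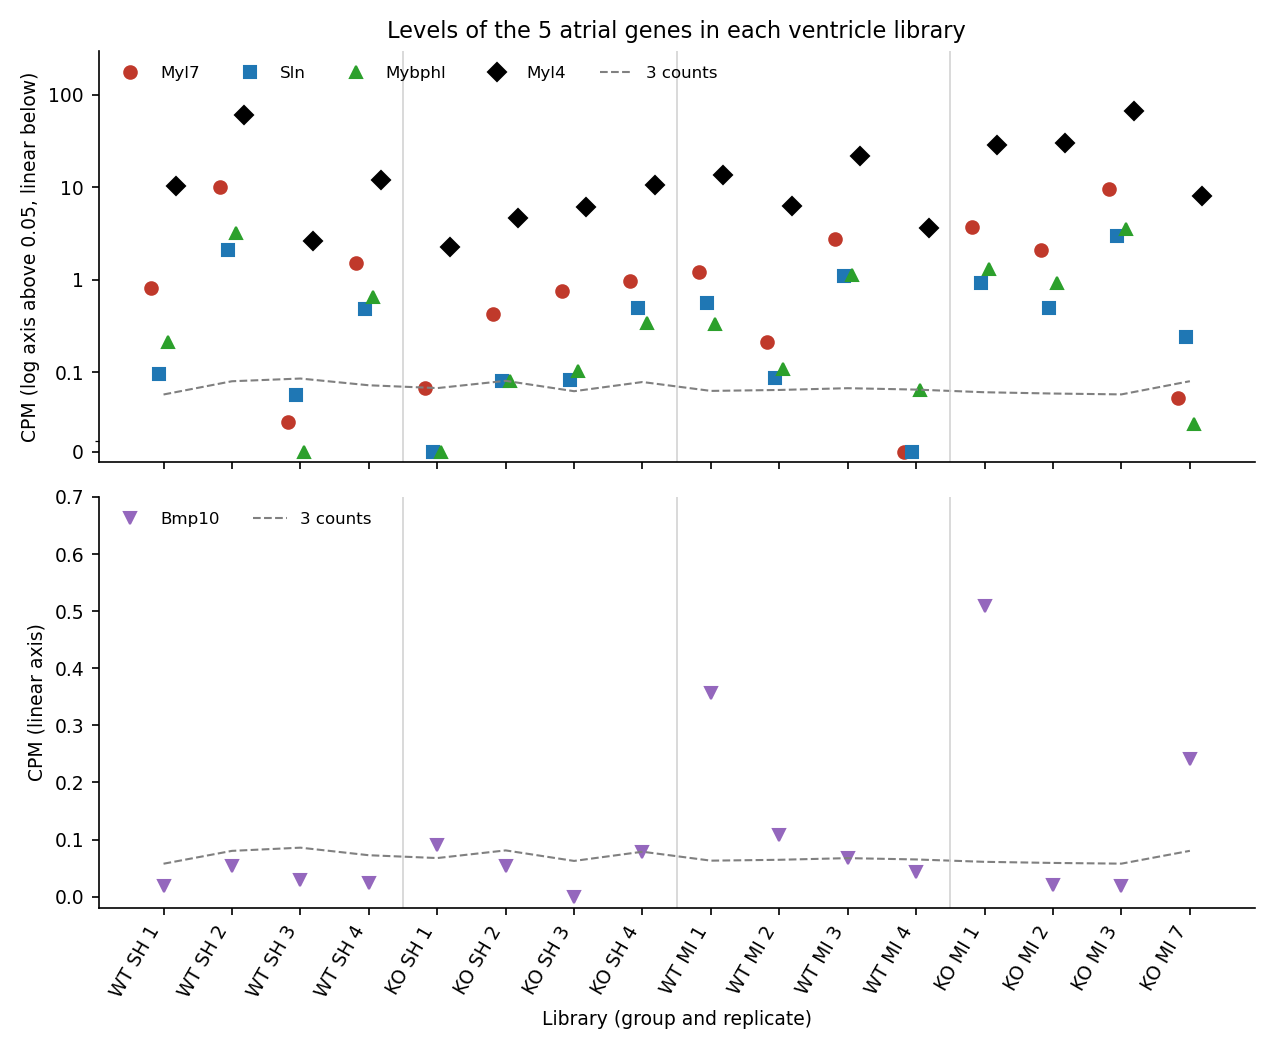
Level of each gene in each of the 16 libraries, with Myl7, Sln, Mybphl and Myl4 above (CPM, log axis above 0.05 and linear below) and Bmp10 below (CPM, linear axis). The dashed line is the level of 3 counts in each library. In the upper panel the 4 genes peak together in WT SH 2 and KO MI 3, up to 66.3 CPM for Myl4, while Bmp10 is highest in KO MI 1 at 0.508 CPM.

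The spread among libraries of one group was large for the 4 genes that could be tested. Over the 20159 genes tested, the median SD of log2(CPM + 0.5) within groups was 0.156. It was 1.43 for Myl7, 1.27 for Myl4, 0.952 for Mybphl and 0.834 for Sln. Each of these exceeded the SD of between 99.7% and 99.9% of the tested genes. On the count scale, the biological coefficient of variation estimated by edgeR was 1.21 for Myl7, 1.14 for Mybphl, 1.11 for Sln and 0.703 for Myl4, against a median of 0.098 over the 14119 genes with a mean of at least 1 CPM. The between-library spread of these genes was therefore several times that of a typical gene, and the group comparisons below were read against it.

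Myl7, Mybphl, Sln and Myl4 rose and fell together from library to library. Over the 16 libraries, Pearson's r of log2(CPM + 0.5) with Myl7 was 0.98 for Mybphl (Spearman's rho 0.96), 0.95 for Myl4 (rho 0.93) and 0.94 for Sln (rho 0.91). The other 3 pairs among these 4 genes had r between 0.93 and 0.96 and rho between 0.92 and 0.95. All 6 pairs had a permutation p of 2e-05 for both measures, the smallest that 100000 resamples give in a two-sided test, and 3.33e-05 after Benjamini-Hochberg adjustment over the 10 pairs of the 5 genes. Without WT SH replicate 2 and KO MI replicate 3, the libraries farthest from the median, the r values lay between 0.88 and 0.95. With the mean of each group removed they lay between 0.91 and 0.98, so the relation was present among libraries of the same group.

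Over all 16 libraries Bmp10 stood outside this relation. Its r was 0.04 with Myl7, 0.02 with Mybphl, 0.12 with Sln and 0.13 with Myl4, and the rho values lay between -0.09 and 0.11. The permutation p ranged from 0.621 to 0.87 for r, with adjusted values of 0.781 and 0.87. Without WT SH replicate 2 and KO MI replicate 3, r was 0.29 with Myl7, 0.30 with Mybphl, 0.47 with Sln and 0.38 with Myl4. With the mean of each group removed it was -0.05, -0.13, -0.03 and -0.06 in the same order. Both values of a pair come from the same library and share its total, which holds for Bmp10 as for the others. With 11 of 16 libraries at or under 3 Bmp10 counts, r could hardly show a relation at low Bmp10 levels. Among Myl7-rich libraries the counts do show that the ratio to Myl7 was not shared. WT MI replicate 1 had 0.293 Bmp10 counts per Myl7 count (exact 95% binomial interval 0.16 to 0.51). KO MI replicate 3 had 0.002 (5.06e-05 to 0.0112).

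**Figure D2:**
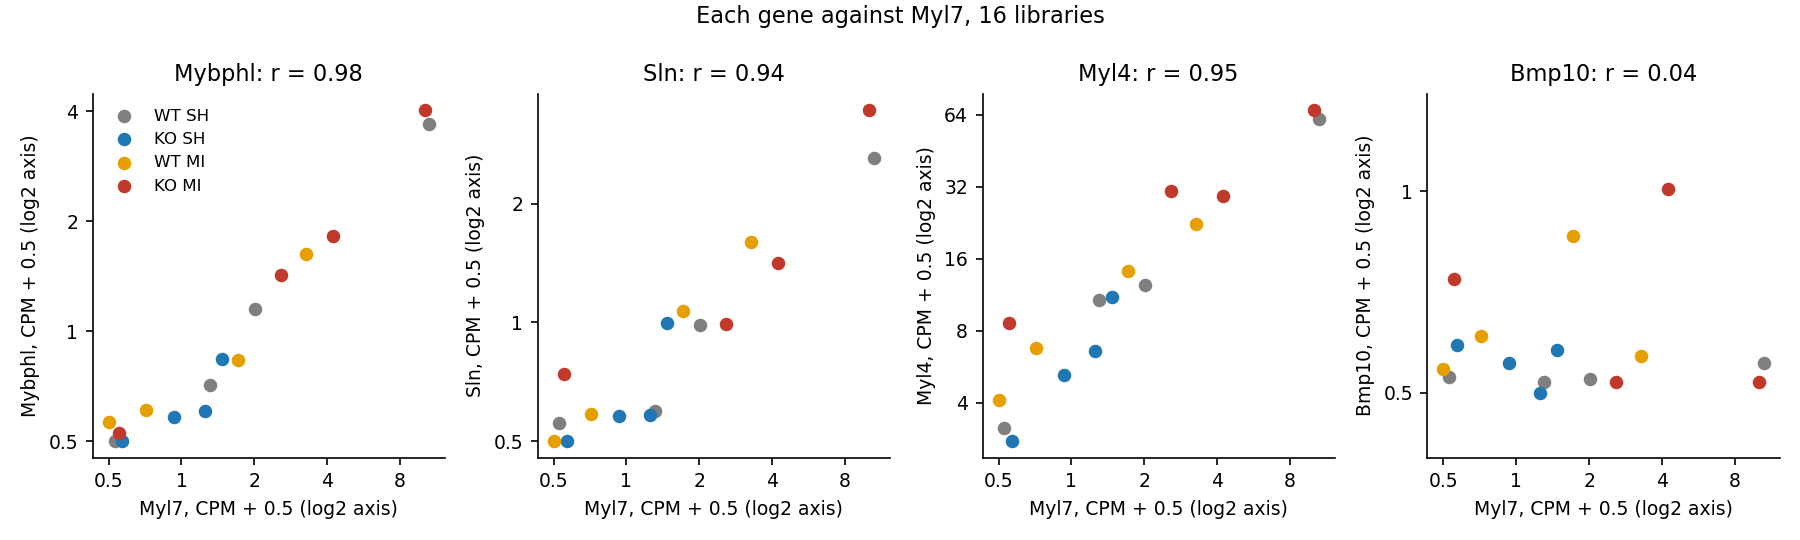
Mybphl, Sln, Myl4 and Bmp10 against Myl7, each point 1 of the 16 libraries coloured by group, both axes CPM + 0.5 on a log2 scale. The first 3 genes climb with Myl7 across all groups (r from 0.94 to 0.98) and Bmp10 does not (r = 0.04).

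In the 10 libraries with at least 30 Myl7 counts, Myl4, Mybphl and Sln varied less per Myl7 count than they did themselves. The highest ratio there was 2.39 times the lowest for Myl4, 3.19 times for Mybphl and 4.62 times for Sln. Libraries with fewer Myl7 counts were left out, which narrows these ranges. Among those, Myl4 had 92 counts beside 1 of Myl7 in WT SH replicate 3. It had 290 beside 10 in WT MI replicate 2 and 174 beside 16 in KO SH replicate 2. Over the 10 libraries kept there were between 0.139 and 0.443 Mybphl counts for each Myl7 count, with 0.352 over all 10. The highest Mybphl ratio was in KO MI replicate 2 (exact 95% binomial interval 0.308 to 0.631) and the lowest in KO SH replicate 3, where 5 counts gave an interval of 0.0425 to 0.355. In WT SH replicate 2 the ratio was 0.316 (0.255 to 0.39) and in KO MI replicate 3 it was 0.367 (0.308 to 0.435), so the top 2 libraries differed by less than the counting error. These intervals cover counting error only.

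Sln ran from 0.111 to 0.514 counts per Myl7 count, with 0.28 over all 10 libraries. It was 0.21 (0.163 to 0.268) in WT SH replicate 2 and 0.307 (0.254 to 0.368) in KO MI replicate 3, and the highest was in KO SH replicate 4, with 0.514 (0.279 to 0.916). WT MI replicates 1 and 3 had 0.466 (0.283 to 0.747) and 0.398 (0.28 to 0.559). The interval of WT SH replicate 2 lies below those of both WT MI libraries.

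Myl4 ran from 6.05 to 14.5 counts per Myl7 count in the 10 libraries with at least 30 Myl7 counts. The lowest ratios were in WT SH replicate 2 (6.05, interval 5.42 to 6.76) and KO MI replicate 3 (6.9, 6.28 to 7.59), the libraries richest in Myl7. The highest was in KO MI replicate 2, at 14.5 (11.9 to 17.8), and the next was in WT SH replicate 1, at 12.7 (9.28 to 17.8). The Myl4 ratio was thus lowest where Myl7 was highest. In the same libraries Bmp10 gave at most 0.293 counts per Myl7 count, in WT MI replicate 1, and 0.002 in KO MI replicate 3.

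Group comparisons used edgeR's quasi-likelihood F-test over all 16 libraries. A gene was called at a Benjamini-Hochberg adjusted p under 0.1 with a log2 fold change of 0.5 or more in size. Bmp10, with 5 summed counts in WT SH and 9 in KO SH, missed the minimum of 10 counts in each group, so 4 of the 5 genes entered. Exact permutation tests (two-sided) of log2(CPM + 0.05) were run for all 5, and 4 libraries against 4 cannot give a p under 0.0286. In none of the 4 comparisons did any of the 5 genes have groups that did not overlap. Over the tested genes, the groups did not overlap for 18.5% in KO SH against WT SH, 6.47% in KO MI against WT MI, 12.1% in WT MI against WT SH and 14.9% in KO MI against KO SH.

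Of the 4 genes, 2 rose post-MI in KO ventricles, relative to KO ventricles after sham surgery. In KO MI against KO SH, Myl4 rose by 2.51 on the log2 scale (SE 0.78, edgeR adjusted p = 0.0459) and Mybphl by 3.51 (SE 1.24, adjusted p = 0.0753). Mean Myl4 was 33.3 ± 24.2 CPM in KO MI and 5.9 ± 3.49 CPM in KO SH (SD, n = 4 each), and 3 of 4 KO MI libraries lay above every KO SH library. Myl7 had a log2 fold change of 2.82 (SE 1.2, adjusted p = 0.14) and Sln of 2.86 (SE 1.16, adjusted p = 0.123), and neither was called. The 2 called of 4 tested stand beside 7.42% of all genes called in this comparison. The median over the 4 genes was 2.84, against -0.01 over all tested genes. Because these 4 genes varied together from library to library, they are not 4 separate results, here or in the comparisons below.

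These calls depended on single libraries. The exact permutation p was 0.0571 for Myl4, 0.0857 for Sln, 0.114 for Mybphl and 0.286 for Myl7. With edgeR's robust fit 0 of the 4 genes were called, and without KO SH replicate 1, KO SH replicate 2 or KO MI replicate 3 the count was also 0. The count was 1 without KO SH replicate 3, KO SH replicate 4 or KO MI replicate 2, and 4 without KO MI replicate 7 or WT SH replicate 2. The log2 fold changes kept their direction in each of these fits, with 1.93 for Myl4 and 2.59 for Mybphl when KO MI replicate 3 was left out. KO MI replicates 2 and 7 also carried skeletal muscle transcripts, described below, and without both of them all 4 genes were called, with log2 fold changes of 3.58 for Myl7 and for Sln.

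Between KO and WT mice post-MI, 0 of the 4 tested genes were called, beside 1.73% of all genes. The log2 fold changes of KO MI against WT MI were 1.57 for Myl4 (SE 0.74), 1.91 for Myl7 (SE 1.1), 1.86 for Mybphl (SE 1.03) and 1.41 for Sln (SE 1.0), with edgeR adjusted p between 0.399 and 0.643. At an unadjusted p under 0.05, 1 gene passed (Myl4), and DESeq2 called 0. Myl7 averaged 3.87 ± 4.12 CPM in the KO MI libraries against 1.05 ± 1.26 CPM in those of WT MI (SD, n = 4 each). The SD exceeded the mean in both groups. Without KO MI replicate 3 the 4 log2 fold changes were 0.99, 0.93, 0.94 and 0.35 in the same order. Exact permutation p ranged from 0.143 for Myl4 to 0.371 for Mybphl.

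After sham surgery the 4 genes pointed the other way. In KO SH against WT SH the log2 fold changes were -1.86 for Myl4 (SE 0.78), -2.47 for Myl7 (SE 1.22), -2.94 for Mybphl (SE 1.28) and -2.07 for Sln (SE 1.22), with edgeR adjusted p between 0.16 and 0.332. No gene was called, beside 5.01% of all genes. At an unadjusted p under 0.05, 2 passed (Myl4 and Mybphl), and DESeq2 called 0. Most of the difference lay in WT SH replicate 2, without which the values were -0.51, -0.54, -1.19 and -0.41 in the same order. Without WT SH replicate 3, Myl4 was called, with -2.23. Exact permutation p ranged from 0.286 to 0.457.

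In WT mice a response to MI was not detectable against this spread. The log2 fold changes of WT MI against WT SH were -0.92 for Myl4 (SE 0.74), -1.55 for Myl7 (SE 1.11), -1.29 for Mybphl (SE 1.07) and -0.62 for Sln (SE 1.05), with edgeR adjusted p between 0.527 and 0.828. Of the 4 genes, 0 were called by edgeR, 0 by DESeq2 and 0 had an unadjusted p under 0.05, beside 2.78% of all genes called. The sign rested on 1 library. Without WT SH replicate 2 the 4 values became 0.44, 0.37, 0.46 and 1.03 in the same order.

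**Figure D3:**
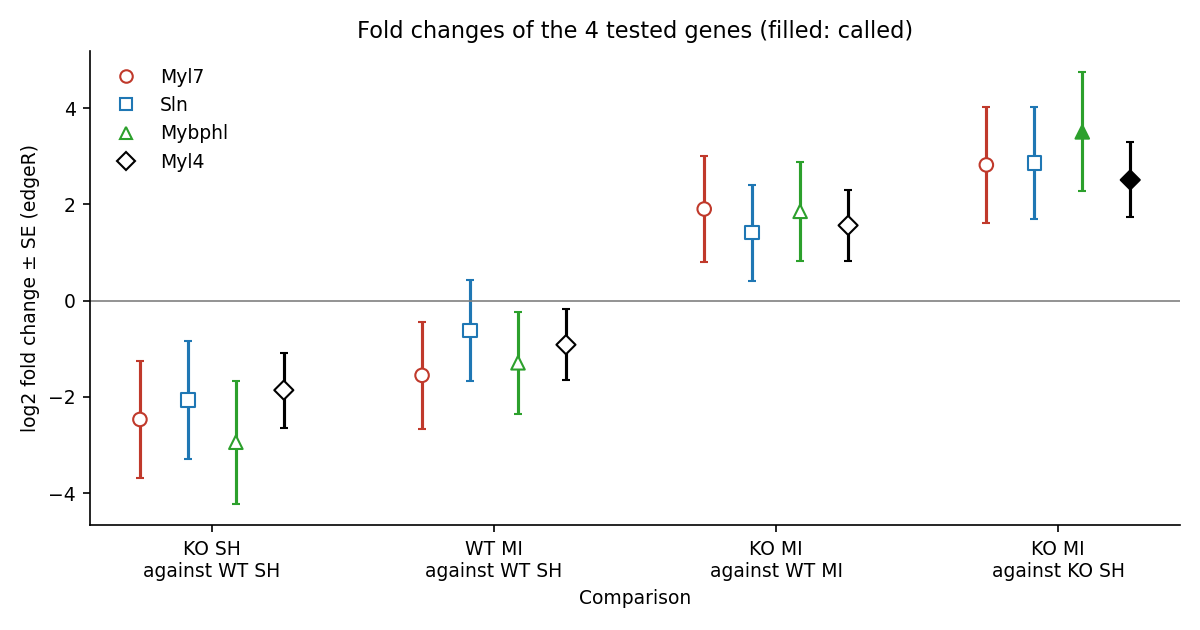
log2 fold change with its SE (vertical axis, edgeR fit of all 16 libraries) of the 4 tested genes in the 4 comparisons; filled symbols were called. Myl4 (2.51) and Mybphl (3.51) in KO MI against KO SH are the filled ones. The 4 genes, which vary together between libraries, share a sign within each comparison.

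The difference of the KO effect between infarcted and sham-operated mice (the interaction) was 3.43 on the log2 scale for Myl4 (SE 1.07), 4.38 for Myl7 (SE 1.64), 4.80 for Mybphl (SE 1.65) and 3.48 for Sln (SE 1.58), with edgeR adjusted p of 0.206, 0.259, 0.226 and 0.343. No gene was called, beside 0.0248% of all genes, and DESeq2 called 0. All 4 had an unadjusted p under 0.05. Without KO MI replicate 7, Myl4, Myl7 and Mybphl were called, with 3.75, 4.77 and 5.19. These 5 contrasts share groups, so their values for one gene are not independent of each other.

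Bmp10 was compared by permutation and in a fit without the count minimum. Its log2 fold changes in that fit were 2.15 in WT MI against WT SH (SE 0.98), 1.78 in KO MI against KO SH (SE 0.88), 0.79 in KO SH against WT SH (SE 1.12) and 0.41 in KO MI against WT MI (SE 0.76), with edgeR adjusted p between 0.283 and 0.934. None passed. The exact permutation p was 0.0571 in WT MI against WT SH, where 3 of 4 WT MI libraries lay above all WT SH libraries, and 0.4 to 0.943 in the other 3 comparisons. Gdf2, which encodes BMP9, the closest relative of BMP10, had at most 7 counts in a library.

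The ventricular counterparts were abundant, apart from Mybph and Gdf2, and 1 of the 4 tested was called. Myl2, the ventricular regulatory light chain, ranged from 1352 to 1797 CPM over the 16 libraries, and Myl3, the ventricular essential light chain, from 2890 to 4026 CPM. Mybpc3, the cardiac myosin-binding protein C, ranged from 931 to 1382 CPM, and Pln, which encodes phospholamban, the SERCA inhibitor of the ventricle, from 1233 to 2445 CPM. Pln fell by 0.54 on the log2 scale in KO MI against KO SH (SE 0.10, edgeR adjusted p = 0.0027) and was the 1 call among the 4 tested counterparts over the 4 comparisons. In KO SH against WT SH, 3 of the 4 had an unadjusted p under 0.05, with log2 fold changes of -0.28 for Mybpc3, -0.19 for Myl3 and -0.15 for Myl2, all under the size needed for a call. Mybph, a relative of Mybphl, had at most 29 counts, in KO MI replicate 7, and was not tested.

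As a share of its counterpart each atrial gene was small. Myl7 reached 0.685% of the Myl2 counts in WT SH replicate 2 and 0.613% in KO MI replicate 3, with a median of 0.0627%. In WT MI replicate 4 there were 0 Myl7 counts, which allows up to 0.004% of Myl2. Myl4 ranged from 0.077% to 2.25% of Myl3, with a median of 0.311%. Sln reached 0.181% of Pln and Mybphl 0.348% of Mybpc3, both in KO MI replicate 3. The log2 ratio to the counterpart was compared by exact permutation in the 4 contrasts, and none of the 16 tests had a p under 0.05. The lowest was 0.0571, for Myl4 to Myl3 (a difference of 2.39) and for Sln to Pln (3.74) in KO MI against KO SH.

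Of the 12 other atrial-enriched genes listed, all were tested. In KO MI against KO SH edgeR called 2 up and 1 down and did not call 9, beside 7.42% of all genes called. DESeq2 called 4 in all, and the edgeR median log2 fold change was 0.00084. Nppa, which encodes atrial natriuretic peptide and is also a stress gene of the ventricle, rose by 3.63 (SE 0.64, edgeR adjusted p = 0.00239), and Dkk3, a secreted glycoprotein of the dickkopf family, rose by 1.14 (SE 0.20, adjusted p = 0.00259). Kcnj5, a subunit of the acetylcholine-gated potassium channel of the atria, fell by 0.55 (SE 0.17, adjusted p = 0.0402). In KO MI against WT MI, Nppa was the 1 of 12 called, with a rise of 2.52 (SE 0.60, edgeR adjusted p = 0.0379), beside 1.73% of all genes. None was called in KO SH against WT SH or WT MI against WT SH, beside 5.01% and 2.78% of all genes. There edgeR gave 5 and 2 of the 12 an unadjusted p under 0.05, and DESeq2 called 0.

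Nppa followed Myl7 less closely by library than Mybphl, Sln and Myl4 did. It was highest in KO MI replicate 2, with 2396 CPM, against 778 CPM in KO MI replicate 3 and 130 CPM in WT SH replicate 2. Within WT SH, Nppa was highest in replicate 2 and lowest in replicate 3 (41.2 CPM), as Myl7 was. Its r with Myl7 was 0.50 (rho 0.42), with a permutation p of 0.0685 and 0.164 adjusted over the 12 genes. With group means removed r was 0.51. This test cannot decide whether a weaker relation was present. Dkk3 had r = 0.70 with Myl7 (rho 0.65, permutation p of 0.00304 and 0.0086, adjusted 0.0182 and 0.103), which was 0.65 without WT SH replicate 2 and KO MI replicate 3 and 0.90 within groups.

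WT SH replicate 2 and KO MI replicate 3 also ranked highest for Gja5, the atrial gap junction gene, and for Stard10. Gja5 had 7.57 CPM in WT SH replicate 2 and 9.93 CPM in KO MI replicate 3, and Stard10 had 6.66 and 7.02 CPM. Kcnj3 and Tbx5 were highest in WT SH replicate 2, at 32.1 and 33.8 CPM, and Nr2f2 in KO MI replicate 3, at 62.4 CPM. Dkk3 was also highest in KO MI replicate 3, at 30.3 CPM. Nppa, Pam, Chrm2, Kcnj5 and Nr2f1 were highest in other libraries. None of the 12 genes had an adjusted permutation p under 0.05 for rho with Myl7.

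Among the genes with a mean of at least 1 CPM outside the 5, Fgf12 was the most alike. It encodes an intracellular fibroblast growth factor homologue that binds voltage-gated sodium channels. Its r with the mean z-score of the 5 genes was 0.92, and it ranked first for Myl7 (0.93), Mybphl (0.93), Sln (0.91) and Myl4 (0.91). Fgf12 had 6.30 CPM in KO MI replicate 3, 3.07 in WT SH replicate 2 and 0.114 and 0.0652 in WT SH replicate 3 and WT MI replicate 4. The next 9 genes were Tulp3, Lmo4, Sbk3, Dkk3, Mfap4, Susd2, Podn, D430019H16Rik and Sting1, with r from 0.81 down to 0.75. Sbk3, a protein kinase gene, was 15.7 CPM in KO MI replicate 3 and 9.22 CPM in WT SH replicate 2 and at most 2.74 CPM elsewhere. These r values are the highest found among many genes and carry no test.

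For Bmp10 the most alike genes were others. Foxp2, Ust and Ccdc61 led with r of 0.74, 0.70 and 0.70, which fell to between 0.63 and 0.65 with group means removed. None of these is among the 10 genes closest to the mean of the 5.

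**Figure D4:**
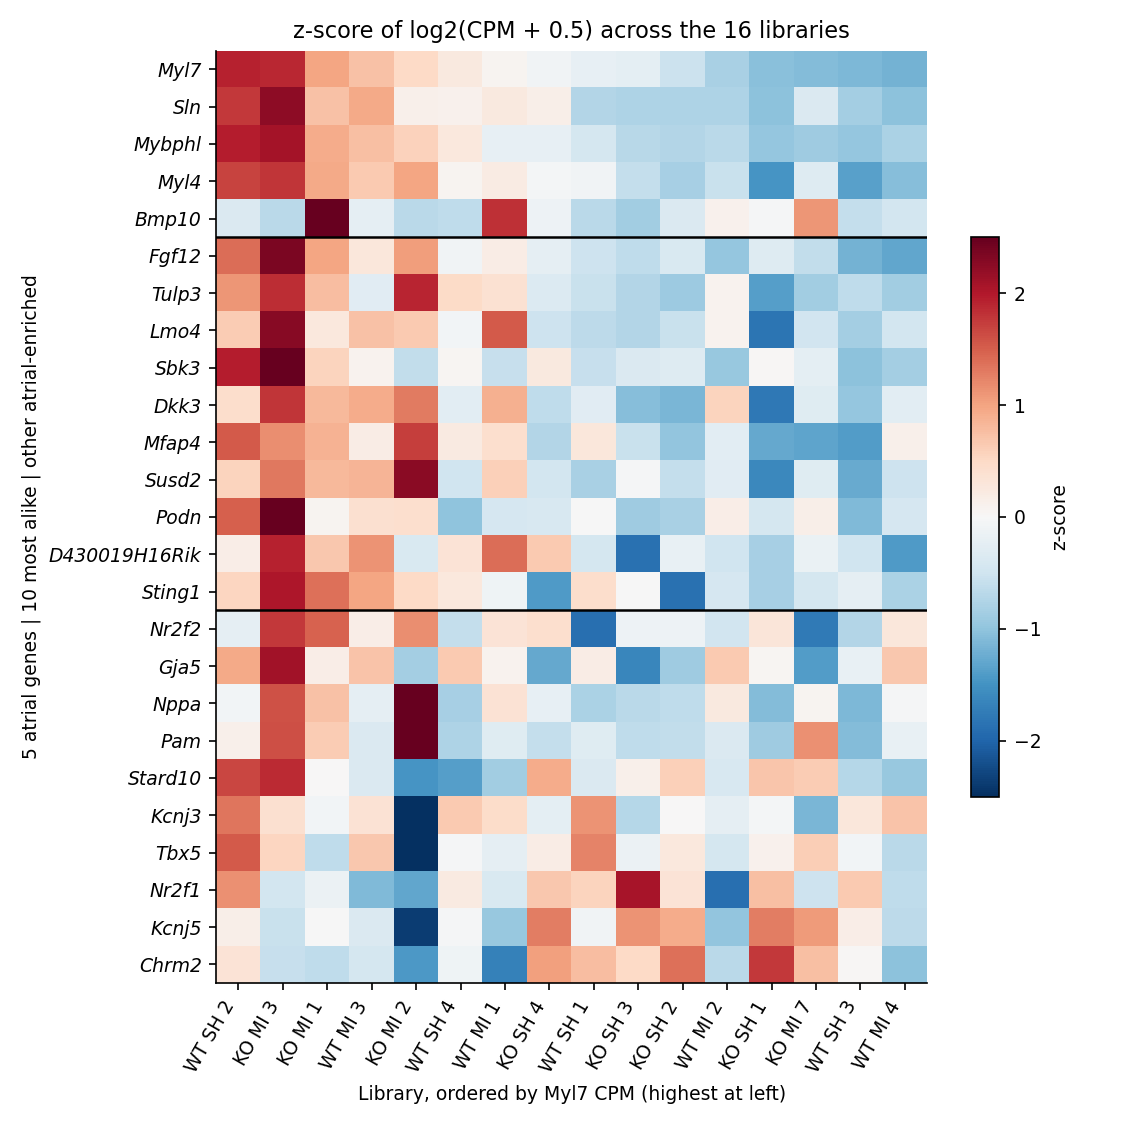
z-score of log2(CPM + 0.5) of the 5 genes, the 10 genes most alike to their mean and the other atrial-enriched genes named in the text, across the 16 libraries ordered by Myl7 CPM with the highest at left. The first 4 rows and Fgf12 fade from left to right, and Bmp10 and most other atrial-enriched genes do not.

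Genes of the whole myocardium moved by small amounts. Of 11 cardiomyocyte genes used in both chambers, among them Tnnt2, Actn2 and Ryr2, 0 were called by edgeR or DESeq2 in the 4 comparisons, because none reached the log2 fold change of 0.5. At an edgeR adjusted p under 0.1 alone, 8 of the 11 fell in KO SH against WT SH, among them Ttn (-0.24, adjusted p = 0.0135) and Actn2 (-0.30, adjusted p = 0.0243), and 5 fell in WT MI against WT SH. All 11 log2 fold changes were negative in both of these comparisons, as were those of the 4 atrial genes, and 10 of 11 were positive in the interaction. All of these involve WT SH, which by its sex-linked genes also differed in sex from the other groups. In KO MI against KO SH 5 passed the same threshold and 5 of 11 values were positive, and in KO MI against WT MI 0 passed, with 1 at an unadjusted p under 0.05 and 0 called by DESeq2. Their summed level was 80375 to 94822 CPM in WT SH and 68300 to 74533 CPM in the other groups. Of 7 ventricular-enriched genes, Hey2, a repressor of atrial genes in the ventricle, rose by 0.96 in KO SH against WT SH (SE 0.20, edgeR adjusted p = 0.00795), and Pln fell in KO MI against KO SH as given above. Myh7 was 95 CPM in WT SH replicate 3, against 583 to 910 CPM in the rest of that group.

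The summed level of 6 genes of the sinus node and the venous myocardium did not point to the libraries rich in Myl7. It was 31.1 to 41 CPM over all libraries, mostly from Tbx3, Tbx18 and Hcn4. Isl1 was at 0 in all WT SH libraries. Hcn4, the pacemaker channel, rose by 0.58 in KO SH against WT SH (SE 0.12, edgeR adjusted p = 0.00676). Tbx18 fell in both KO against WT comparisons, by 0.54 (SE 0.14, adjusted p = 0.0225) after sham surgery and by 0.52 (SE 0.13, adjusted p = 0.0523) post-MI. None of the 6 was highest in WT SH replicate 2 or KO MI replicate 3. Vsnl1, which adds little to the sum, had 7 and 14 counts in these libraries. It had 16 counts in KO MI replicate 1, its highest library, 12 in WT MI replicate 3 and 5 in KO MI replicate 2. Its relation to Myl7 was not tested.

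Of 6 SERCA pumps and regulators, the partners of sarcolipin, 5 were tested. Atp2a2, the cardiac SERCA pump, ranged from 2604 to 5094 CPM. The fitted log2 change in KO MI against KO SH was -0.38 (SE 0.09, edgeR adjusted p = 0.00967), under the size needed for a call. Atp2a1, the pump of fast skeletal muscle, rose by 3.45 in KO MI against WT MI (SE 0.93, edgeR adjusted p = 0.0692) and by 4.43 in KO MI against KO SH (SE 1.04, adjusted p = 0.0116). Of 16 relatives, receptors, effectors and targets of BMP10, 15 were tested. Id1, a target gene of BMP signalling, fell by 0.52 in KO SH against WT SH (SE 0.11, adjusted p = 0.00969) and Acvr2b, a receptor, fell by 0.56 in KO MI against KO SH (SE 0.18, adjusted p = 0.0516). DESeq2 called 2 of the 15 in KO MI against KO SH, where edgeR called 1.

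Skeletal muscle transcripts were high in KO MI replicates 2 and 7 and not in replicates 1 and 3. Of the 5 genes, 2 (Myl4 and Sln) are made in skeletal muscle too. The summed level of 16 skeletal muscle genes was 11.2, 125, 20.2 and 196 CPM in KO MI replicates 1, 2, 3 and 7. It ranged from 14.2 to 23.8 CPM in WT SH, from 9.75 to 15 CPM in KO SH and from 18.6 to 41.9 CPM in WT MI. Of the 10 tested, 9 rose in KO MI against KO SH, beside 7.42% of all genes called. In KO MI against WT MI 5 rose, beside 1.73%. Myl1 fell in KO SH against WT SH, where 5.01% of all genes were called. Neb, which cardiac muscle also expresses weakly, rose least in KO MI against KO SH (1.61, SE 0.46, edgeR adjusted p = 0.0319), and Myh8, the perinatal myosin heavy chain, rose by 5.25 (SE 0.96, adjusted p = 0.00282). Pvalb was at 0 in KO SH, WT MI and KO MI. Replicates 2 and 7 thus held most of these transcripts, whereas Myl7, Mybphl, Sln and Myl4 were highest in replicate 3. KO MI replicate 7, with the most skeletal transcripts, had 8.11 CPM of Myl4 and 0.0535 CPM of Myl7. Its 9 Sln counts and the Myl4 to Myl7 ratio of 14.5 in replicate 2 departed from the common pattern. Myl4 in replicate 7 also lay above its level in the other libraries with at most 3 Myl7 counts. Those were WT SH replicate 3 (2.63 CPM), KO SH replicate 1 (2.25 CPM) and WT MI replicate 4 (3.61 CPM). The part of skeletal muscle in those values was not tested.

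**Figure D5:**
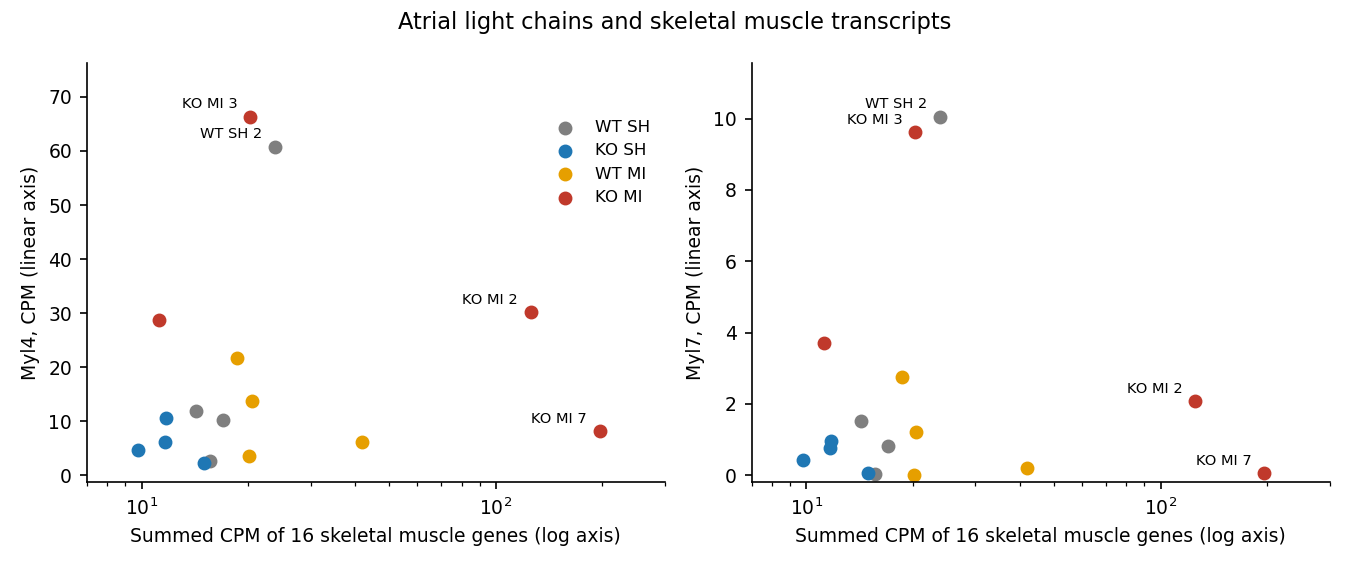
Myl4 (left) and Myl7 (right) in CPM against the summed CPM of 16 skeletal muscle genes (log axis), 1 point per library coloured by group. KO MI 2 and KO MI 7 lie far to the right (125 and 196 CPM) and below KO MI 3 and WT SH 2 for both genes.

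Markers of other tissues that a heart dissection can carry were also read. Smooth muscle genes summed to between 257 and 443 CPM. Of these, 3 of 5 (Acta2, Tagln and Cnn1) rose in KO MI against KO SH, beside 7.42% of all genes called. Acta2 fell in KO SH against WT SH, where 5.01% of all genes were called. Epicardial and mesothelial genes were highest in KO MI replicate 3, with 44.6 CPM, and lowest in WT SH, with 16.6 to 17.8 CPM. Of these 5 genes, 4 rose in WT MI against WT SH, beside 2.78% of all genes called. In KO SH against WT SH 3 rose, beside 5.01%, and in KO MI against KO SH 2 rose, beside 7.42%. WT SH replicate 2, the other library rich in Myl7, had 17.8 CPM. Thymocyte genes summed to at most 2.54 CPM and lung epithelial genes to at most 1.66 CPM. Adipocyte genes reached 4.31 CPM, in KO MI replicate 7. Of their 4 tested genes edgeR and DESeq2 called 0 in the 4 comparisons, with at most 1 per list at an unadjusted p under 0.05. Only 1 of the 5 lung genes and 0 of the 5 adipocyte genes met the count minimum, so these 2 lists were hardly tested. Sftpc, a lung gene, had 24 and 32 counts in KO MI replicates 2 and 7 and at most 1 elsewhere. Sftpb and Ager were highest in KO SH replicate 3 and WT MI replicate 3. Ucp1, of the adipocyte list, had 114 counts in KO MI replicate 7 and at most 8 elsewhere. Scgb1a1 and Lep were at 0 in all libraries. The part of these tissues in the levels of the 5 genes was not tested.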

How the data were processed

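The authors deposited a table of expected counts per Ensembl gene from RSEM for 16 ventricle libraries, made with a stranded total RNA kit after depletion of ribosomal RNA and read in pairs. The submitters' processing notes name HISAT2 2.2.1, RSEM 1.1.17, cutadapt 3.4 and bcl2fastq 2.17 with GRCm39, the study's methods name other trimming and alignment tools, and the annotation release is not given in the sources used here. Expected counts include reads that RSEM divided between genes, and they were rounded to whole numbers. Gene names were taken from GENCODE M39, which matched 47772 of 51912 identifiers. All columns were mapped to a sample by the labels. Replicates are separate libraries, and where the labels do not say that each is one mouse, p-values measure the spread between libraries.

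Genes whose counts summed to 10 or more within every group (20159) were fitted with edgeR 4.0.16 in R 4.3.3 (quasi-likelihood F-test, TMM, 4 groups in one fit), with Benjamini-Hochberg adjustment over all genes tested. A call needed both an adjusted p below 0.1 and a log2 fold change of 0.5 or more in size. This step was tested on simulated data, with changes placed in randomly drawn genes of at least 1 CPM on average. That range leaves out Sln and Mybphl, and genes as spread as the 4 atrial ones were not tested on their own. DESeq2 1.42.0 was an alternative. Single genes and ratios to counterparts (0.5 added to each count) were compared by exact permutation with scipy 1.17.1, and correlations used log2(CPM + 0.5) and 100000 resamples. Ratios per Myl7 count have exact binomial intervals.

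The genes named were the 5 atrial genes, their ventricular counterparts, up to 4 called genes of largest mean CPM for each other list and comparison, the 10 genes most alike to the mean z-score of the 5, and the 3 most alike to each. The other lists held atrial-enriched, ventricular-enriched, cardiomyocyte, SERCA, BMP10-related and sinus node genes, and markers of skeletal muscle, smooth muscle, epicardium, thymocytes, lung and fat. Further genes of the atrial-enriched, lung and fat lists were named after their values were seen, to say where each was highest. The members and lists were chosen with earlier results of these data known. Promoters are RefSeq sequences placed on GRCm39 by exact match. The alternatives were other scalings, filters, tools, thresholds, covariates and pseudocounts, and leaving out each library. One gene of the atrial-enriched list is not reported here on its own.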

Additional observations from a re-analysis of the deposited data

Results flagged for a closer look

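In 20 groups of 4 libraries (5 genes by 4 groups), 3 held a library whose gap in CPM to the nearest of the others passed Dixon's critical value. The rate of about 1 in 20 by chance holds for normally distributed values. CPM of these genes was skewed within groups, so the 3 are not read as an excess over that rate. Myl4 was 60.8 CPM in WT SH replicate 2, against 11.9 CPM in the next library of that group. Myl7 was 10.1 CPM in the same library, against 1.52 CPM in the next. Sln was 0.498 CPM in KO SH replicate 4, against 0.0835 CPM in the next, on 19 and 4 counts. The 3 values are not independent, since the genes vary together.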

How the results depend on the processing

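Of the log2 fold changes of the 4 tested genes under the alternatives, 508 kept their direction and their side of the threshold, 22 became called, 11 lost the call and 5 reversed. In KO SH against WT SH the number called (0) became 2 when libraries were scaled to cardiomyocyte genes, which shifted the median of all genes by 0.25, and 0 to 1 when each library was left out in turn. In KO MI against KO SH the number called (2) became 4 with no filter (of 5 genes, Bmp10 included) or with Xist as a covariate, 1 at an adjusted p under 0.05, 0 with a robust fit, and 0 to 4 with each library left out. In the interaction it was 0 to 3 with each library left out. Without KO MI replicates 2 and 7, an alternative chosen after seeing the data, the numbers were 1, 4 and 3 in these 3 comparisons. In WT MI against WT SH, leaving out each library moved the log2 fold change from -1.44 to 0.44 for Myl4, -2.66 to 0.37 for Myl7, -1.60 to 1.03 for Sln and -2.53 to 0.46 for Mybphl, and Sln was 0.24 with Xist as a covariate. The log2 ratios to the counterpart ranged in the same way from -3.00 to 0.054 for Myl7 to Myl2, -0.92 to 0.58 for Myl4 to Myl3, -1.62 to 0.63 for Sln to Pln and -1.50 to 1.12 for Mybphl to Mybpc3, and Myl7 to Myl2 in KO SH against WT SH from -2.39 to 0.27. With a pseudocount of 0.05 CPM, r with Bmp10 was -0.022 for Myl7 and -0.0026 for Mybphl, and with cardiomyocyte scaling it was -0.031 for Myl7. Same-numbered libraries did not deviate together (r from -0.23 to 0.23, over 0.1 in 5 of 21 pairs), so the numbers were not taken to pair them. With the replicate number as a block the number called was 2 in KO MI against KO SH, 1 in the interaction and 0 in the other 3 comparisons. The cause was not tested, other than that leaving out a library leaves fewer samples. Depth limits Bmp10 most, with 11 of 16 libraries at or under 3 counts.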
